A study of Gallus gallus with 144 samples.

Results

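Among the chicken genes with a promoter in this CAGE peak list, 488 had only 1 promoter peak, and that peak was 1 bp wide. CAGE sequences the capped 5′ ends of RNA, so a peak is read as a place where transcription starts. Whether each peak marks such a start was not tested. A width of 1 bp means that the peak held only 1 genomic position. Members were selected on peak width and label: they were the genes that carried exactly 1 peak with the authors' promoter label, with that peak spanning 1 bp. They were 4.68% of the 10437 genes with a labelled promoter and 13.0% of the 3758 genes with a single promoter peak. Width and label are therefore given below as a description. The remaining 3270 single-promoter genes, whose peak was wider than 1 bp, are called wider single promoters here and serve as the comparison.

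The 144 libraries came from 24 chickens, 12 labelled fast growing and 12 slow growing, and each bird gave brain, breast, heart, kidney, leg and liver. Each of the 12 combinations of growth group and tissue thus has 12 libraries, and the labels analysed give no breed, age, sex or treatment. All results rest on 1 deposited file, which holds 153662 peaks in GRCg6a coordinates for the libraries together, without heights or replicates. Depth is therefore unknown, a peak may come from any of the tissues, and fast against slow growth was not analysed here. Intervals are 95% Wilson intervals and cover counting over genes or peaks only. Genes of 1 list are not replicates, so no test across genes was made.

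In vertebrates, transcription by RNA polymerase II starts in different ways at different promoters. Focused promoters, often with a TATA box or a strong initiator, use a narrow set of positions and are known from genes with tissue-restricted or inducible expression. Dispersed promoters, often in CpG islands, spread over many positions and are known from housekeeping genes. Ribosomal protein genes are a known exception among housekeeping genes, since their mRNAs start at a cytosine within a short pyrimidine tract. Sequence around the peaks was not analysed here.

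Single promoters were 1 bp wide more often than the promoter peaks of genes that had several. The 488 members made up 13.0% of single promoters, whereas 927 of the 21211 promoter peaks of genes with several were 1 bp wide (4.37%). Both lay below the share over all peaks of the list, 23.7%, and over unlabelled peaks, 27.2%. Merging promoter peaks of the same gene within 20 bp could not change the members. A lone peak has no partner, and a merged peak is wider than 1 bp. Members thus stayed at 488. Their share of single promoters was then 6.63%, and the share in genes with several was not recomputed. Of the 6679 genes with several promoter peaks, 869 had at least 1 peak of 1 bp and 15 had peaks of 1 bp only. Just outside the width limit lay 293 genes with a single promoter of 2 bp, 197 with 3 bp and 144 with 4 bp. The median width of wider single promoters was 13 bp and the widest reached 742 bp. Plus-strand members numbered 254 and minus-strand members 234.

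Most members were protein-coding genes, with a large share of genes that have no symbol in the list. An Ensembl identifier was the only name of 164 members (33.6%, interval 29.6 to 37.9), compared with 764 of the wider single promoters (23.4%, interval 21.9 to 24.8). Of the 324 members named by a symbol, 304 matched a current RefSeq symbol and all 304 were protein-coding there. A further 8 matched through older symbols and 12 did not match.

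Ribosomal protein genes, which encode the protein part of the ribosome, gave 14 members. Of 58 labelled ribosomal protein genes, 39 had a single promoter peak, and 14 of these peaks were 1 bp wide (35.9%, interval 22.7 to 51.6, beside 13.0% of all single promoters). A further 9 were 2 or 3 bp wide, 11 lay between 4 and 100 bp, and 5 exceeded 100 bp, among them RPL26L1 at 140 bp, RPL12 at 162 bp, RPS7 at 172 bp and RPS12 at 289 bp. The median width of the 39 was 2 bp, beside these 5 broad promoters. The rule did not use ribosomal protein genes with several promoter peaks. In those 19 genes, 10 of 49 promoter peaks were 1 bp wide (20.4%, interval 11.5 to 33.6), beside 4.37% in all genes with several.

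Large-subunit members were RPL3, RPL4, RPL5, RPL11, RPL13, RPL15, RPL30 and RPL31, and small-subunit members were RPS2, RPS3A, RPS6, RPS10, RPS24 and RPS28. The promoter of RPS6, the ribosomal protein phosphorylated downstream of mTOR signalling, was position 33740888 of chromosome Z on the minus strand. That of RPL11 was position 5714105 of chromosome 23 on the plus strand.

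From 500 to 20000 bp downstream, unlabelled peaks followed all 14 of these promoters on the transcribed strand. Such peaks were common, since only 27.7% of all members and 30.2% of all single promoters had none there. In this window the ribosomal protein members had between 2 and 14 unlabelled peaks on their own strand. Their median was 4.5, beside a median of 2 over all members. RPS2 had 14 own-strand and 2 opposite-strand peaks, RPL15 11 and 1, and RPS10 9 and 0. The own strand held more peaks than the opposite strand in 11 of the 14, beside 44.9% of all members and 42.0% of all single promoters. The exceptions were RPS28 with 3 and 6, RPS3A with 4 and 4, and RPL11 with 2 and 2. Among wider single promoters of ribosomal protein genes, more had an own-strand excess than the reverse. The excess was therefore not particular to 1 bp. RPL34 had 9 and 2 and RPL35A 7 and 1, whereas RPL29 had 8 and 13 and RPL37A 0 and 4.

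A wider unlabelled peak lay close to some of these 1 bp promoters. RPS2, at position 6541961 of chromosome 14 on the minus strand, was followed 211 bp downstream by an unlabelled peak of 176 bp, the widest unlabelled own-strand peak within 500 bp of any of the 488 members. RPS28, at position 983367 of chromosome 28 on the minus strand, had 9 unlabelled own-strand peaks within 500 bp downstream, the most of the 488 members, the widest being 27 bp. RPL11 and RPS3A had 1 each, of 2 and 6 bp, and the other 10 had no unlabelled own-strand peak within 500 bp. TPT1, which encodes the translationally controlled tumour protein and whose mRNA also starts with a pyrimidine tract in mammals, had a 37 bp unlabelled peak 290 bp downstream.

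Other machinery of gene expression and energy supply gave from 0 to 3 members per list. Of 16 single promoters of mitochondrial ribosomal protein genes, 1 was 1 bp wide (MRPL23, 6.25%). Of 23 of translation factors and aminoacyl-tRNA synthetases, 3 were: EEF1D, EIF1 and EIF4H (13.0%, the same as over all single promoters). None of the 21 of the respiratory chain and ATP synthase was 1 bp wide (upper limit of the interval 15.5%), and their median width was 9 bp. None of the 8 of the proteasome was either (upper limit 32.4%). Chaperones gave 1 of 18 (5.56%), BAG3, the co-chaperone of stressed muscle. Apart from ribosomal proteins and histones, the interval of each other list drawn in the plot of lists held the value for all single promoters, 13.0%. Of the lists too small to be drawn, endothelium and pericytes lay above that value with its whole interval, as given below.

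**Figure D1:**
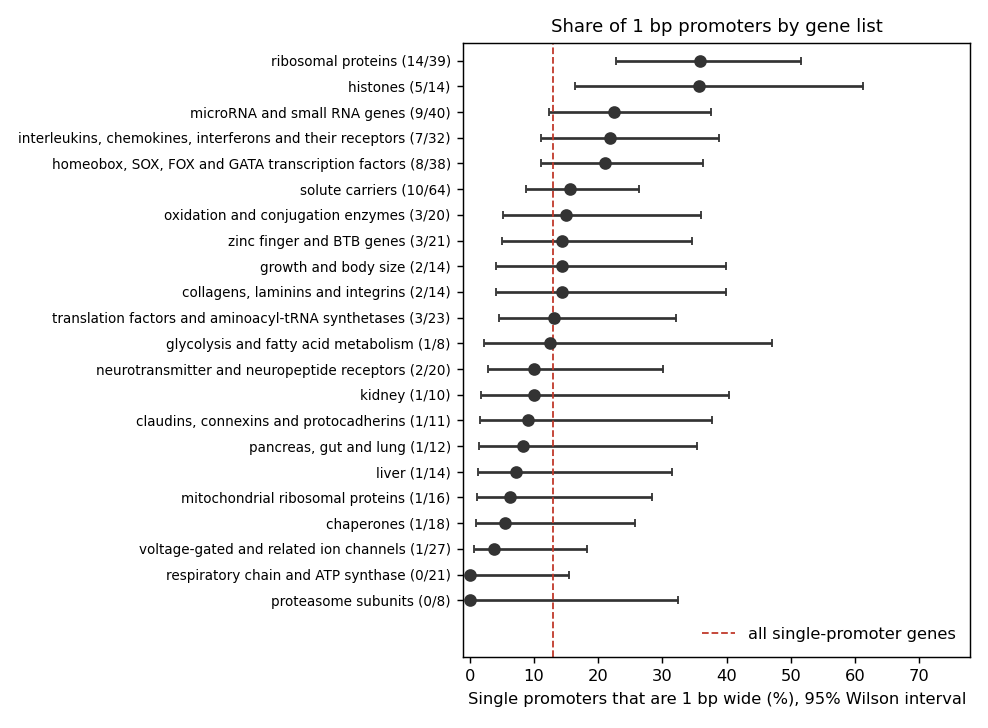
Share of single promoters that were 1 bp wide (horizontal axis, percent) in each gene list of the first set of 33 with at least 8 single promoters, with members and single promoters in parentheses. Points are shares, bars are 95% Wilson intervals, and the dashed line is the share over all single promoters, 13.0%. Of the lists drawn, ribosomal proteins and histones lay to the right of the line with their whole interval, histones with the cluster on chromosome 1 included.

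Histone genes, whose products package DNA, gave 5 members of 14 single promoters (35.7%, interval 16.3 to 61.2). With only the members of the 2 runs described next left out, the share was 18.2%, beside 12.5% of all single promoters. Wider single promoters of histone genes in the runs, such as HIST2H4B and HIST1H110, stayed counted. The share was therefore bound to fall. H2AFJ, HIST1H101, HIST1H111R and HIST1H2B8 lay on chromosome 1, and H3F3B, a gene of the replacement histone H3.3, on chromosome 18. The chromosome 1 genes lay in or next to a histone cluster where 9 members followed each other at gaps of at most 20000 bp, from 48076844 to 48151532. Of these 9, 6 had only an Ensembl identifier. Of 31 peaks in that stretch, 12 were 1 bp wide, 24 were labelled and the widest had 25 bp. In the 50000 bp on each side, 7 of 41 peaks were 1 bp wide (17.1%). Within a type of histone, many genes are near-identical copies of each other. The sources used here do not say how reads that match several copies were treated, so the peaks of this cluster are uncertain.

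The densest run of members lay on chromosome 15. From 8223540 to 8242747, a stretch of 19207 bp, 11 members followed each other, of which 4 were transcribed from the plus and 7 from the minus strand. The stretch held 13 peaks, all with a promoter label, and 12 of them were 1 bp wide. The exception was a 27 bp peak of ENSGALG00000054874, a gene with 2 promoter peaks, the other being 1 bp. Neighbouring peaks lay a median of 1168.5 bp apart. Of the 11 members, 10 had only an Ensembl identifier, among them ENSGALG00000051167 at the lower end. VPS29L marked the upper end. In the 50000 bp on each side, 4 of 68 peaks were 1 bp wide (5.88%) and 6 were labelled. With this run, members were 19 of 94 single promoters on chromosome 15 (20.2%), and 9.64% without it. ENSGALG00000050376 and ENSGALG00000048390 were each other's nearest own-strand peak, 2315 bp apart. For ENSGALG00000051167 the nearest own-strand peak also lay 2315 bp away. Whether genes of the chromosome 15 run are copies of each other was not checked. The treatment of reads that match several places is unknown here too, so the peaks of this run are also uncertain. Both runs were picked out after their values were seen. Each run starts and ends at a member, and members are labelled 1 bp peaks by the rule. High shares of such peaks inside the runs, also beside their flanks, were therefore partly fixed in advance. Over all chromosomes, members within 20000 bp of each other formed 15 runs, and the other 13 were pairs.

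By chromosome class the share of members changed little. It was 12.3% on chromosomes 1 to 5 (203 of 1646, interval 10.8 to 14), 14.9% on chromosomes 6 to 10 (81 of 544, interval 12.1 to 18.1), 13.4% on the microchromosomes (186 of 1389, interval 11.7 to 15.3) and 10.2% on chromosome Z (18 of 176, interval 6.57 to 15.6). The intervals of these classes overlapped. Chromosome 7 had 23 of 119 (19.3%, interval 13.2 to 27.3) and chromosome 16 had 1 of 25.

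**Figure D2:**
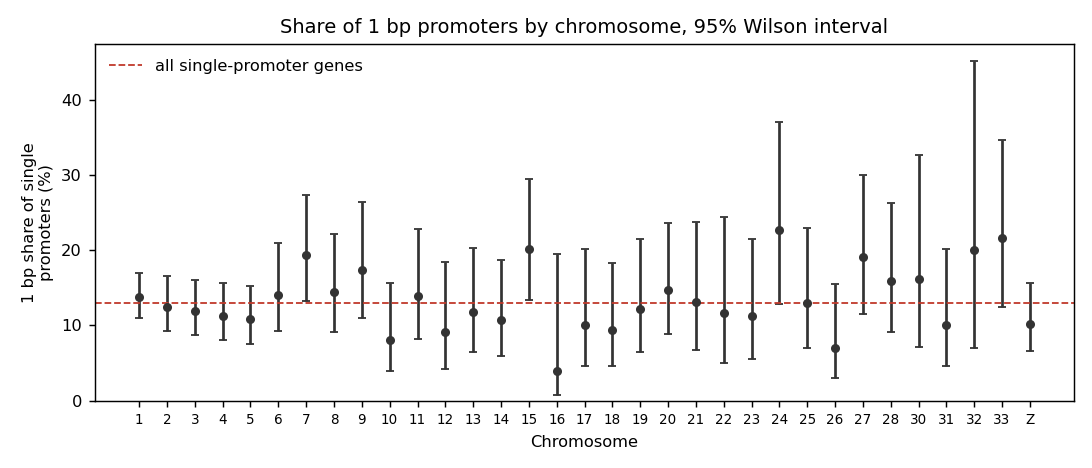
Share of single promoters that were 1 bp wide (vertical axis, percent) on each chromosome of GRCg6a with at least 1 member (horizontal axis), with 95% Wilson intervals. The dashed line is 13.0%. Chromosomes 7 and 15 lay above the line with their whole interval, chromosome 15 at 20.2% with the run of 11 members.

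Small RNA genes gave 9 members of 40 single promoters (22.5%, interval 12.3 to 37.5). They were 7 microRNA genes, among them gga-mir-12219, gga-mir-12291 and gga-mir-1673, and the small nuclear RNA genes 7SK and U12. 7SK RNA holds back the elongation factor P-TEFb, and U12 RNA belongs to the minor spliceosome. The promoter of gga-mir-12291, on chromosome 31, was followed by 15 unlabelled own-strand and 2 opposite-strand peaks. In small RNA genes with several promoter peaks, which the rule did not use, 13 of 89 were 1 bp wide (14.6%, interval 8.74 to 23.4), beside 4.37% in all genes with several.

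Developmental transcription factors gave 8 members of 38 single promoters (21.1%, interval 11.1 to 36.3). They were the homeobox cluster genes HOXB9 and HOXC8, the LIM factor gene LHX8, the POU factor genes POU1F1, POU3F1 and POU4F3, SOX3, and TBX2. POU1F1 encodes the pituitary factor that drives growth hormone, prolactin and thyrotropin genes. Its promoter, at 94257804 of chromosome 1, had no own-strand peak within 500 bp, and its nearest own-strand peak lay 13327 bp away. SOX3, a gene of neural progenitors, was among the most isolated members, with 51902 bp to the nearest own-strand peak. TBX2 differed from these, with 4 unlabelled peaks within 500 bp upstream, the widest 15 bp. HOXB9 had 20 unlabelled own-strand peaks downstream and 3 on the other strand. In genes of this list with several promoter peaks, which the rule did not use, 2 of 127 peaks were 1 bp wide (1.57%, interval 0.433 to 5.56). The interval held the 4.37% in all genes with several.

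Immune signalling genes gave 7 members of 32 single promoters (21.9%, interval 11 to 38.8). They were the inflammatory cytokine genes IL1B and IL18, the interleukin 1 receptor gene IL1R1, the granulocyte growth factor gene CSF3, and the chemokine receptor genes CCR7, CCR8L and CXCR7. None had an own-strand peak within 500 bp, but this was common, since 427 of the 488 members had no unlabelled one there. IL1B lay at 5173295 of chromosome 22, minus strand, and the window downstream held 2 unlabelled own-strand and 5 opposite-strand peaks. In immune signalling genes with several promoter peaks, 4 of 92 peaks were 1 bp wide (4.35%), close to the 4.37% in all genes with several. ZAP70, the kinase of the T cell receptor, was the member among 4 immune cell markers with a single promoter.

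Solute carriers, which move small molecules across membranes, gave 10 members of 64 single promoters (15.6%, interval 8.71 to 26.4). Among them were SLC10A2, the intestinal and renal bile acid carrier, SLC11A1, the metal transporter of macrophage lysosomes, SLC40A1, the iron exporter ferroportin, and SLC7A9, the light subunit of the renal cystine transporter. Downstream of SLC37A2 lay 16 unlabelled own-strand peaks and 1 opposite-strand peak, the most of the 10 carriers, and SLC38A3 had 13 and 2. Cytochrome P450 members were CYP2R1, the vitamin D 25-hydroxylase, and CYP2C23a and CYP2C23b on chromosome 6. With them, oxidation and conjugation enzymes stood at 3 of 20 (15%).

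The remaining gene family lists gave between 1 and 3 members each. Zinc finger and BTB genes gave KLHL8, ZNF407 and ZNF512B of 21 single promoters. Collagens, laminins and integrins gave COL14A1 and COL1A2, a chain of type I collagen, of 14. Neurotransmitter and neuropeptide receptors gave CHRNA1, the muscle acetylcholine receptor subunit, and CHRNA10 of 20. Ion channels gave KCNS1, a modulatory potassium channel subunit, of 27, and claudins, connexins and protocadherins gave the connexin gene GJB1 of 11. Rab GTPases gave RAB8A of 7, and keratins gave KRT18, a keratin of simple epithelia, of 7. No olfactory receptor gene carried a promoter label in the list.

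Marker lists of the sampled tissues gave 1 or 2 members each, with skeletal muscle standing for breast and leg. Over all single promoters the share was 13.0%. Liver (7.14%) and kidney (10%) lay below it, and skeletal muscle (16.7%), brain (20%) and heart muscle (40%) above it. The interval of each of these lists held 13.0%. ACTA1, the skeletal muscle actin, was the member among 6 skeletal muscle markers with a single promoter, and MYH15 and MYH7B, both myosin heavy chain genes, were members among 5 heart muscle markers. PCK1, the enzyme that opens gluconeogenesis, was the member among 14 liver markers, WT1, a podocyte transcription factor, among 10 kidney markers, and OLIG2, the oligodendrocyte lineage factor, among 5 brain markers. Among other cell types, endothelium and pericytes gave ACTA2, EGFL7 and RGS5 of 6 (50%, interval 18.8 to 81.2, wholly above 13.0%). Fat cells and fibroblasts gave COL1A2 of 7, and red blood cells HBE1 of 5. Markers of tissues that were not sampled gave ZP1, an egg coat gene, of 6 in eye, testis and female tract, and CPB1, a pancreatic carboxypeptidase, of 12 in pancreas, gut and lung. These counts are small, and the pooled list gives no tissue for any of them. Growth and body size genes gave IGFBP2, a binding protein of insulin-like growth factors, and POU1F1, of 14 single promoters. IGFBP2, at 23307770 of chromosome 7 on the minus strand, was followed 122 bp downstream by an unlabelled peak of 22 bp. DGAT2, which makes triglyceride, was the member among 8 genes of glycolysis and fatty acid metabolism.

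Members had fewer peaks close by than wider single promoters. An unlabelled peak lay within 500 bp on the own strand of 61 members (12.5%, interval 9.86 to 15.7), and of 795 wider single promoters (24.3%, interval 22.9 to 25.8), beside 22.8% of all single promoters. Within 100 bp the shares were 0.82% and 9.05%. The neighbours also lay farther off, at a median of 322 bp from members and 184 bp from wider single promoters. Of the 105 neighbours of members, 81 lay downstream and 24 upstream, their median width was 9 bp, and 11 were 1 bp wide. Downstream neighbours within 500 bp were found at 47 members (9.63%) beside 20.4% of all single promoters. Upstream neighbours were found at 14 members (2.87%, interval 1.72 to 4.76), and at 77 wider single promoters (2.35%, interval 1.89 to 2.93), beside 2.42% of all single promoters.

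The deposited list is named as robust DPI peaks (decomposition-based peak identification). The settings by which nearby positions were joined into peaks are not stated. Only the merging of promoter peaks given above was tried, and the part of joining in neighbour counts was not tested.

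The order changed beyond 500 bp. In the bin from 500 to 750 bp downstream, members had 13.9 unlabelled own-strand peaks per 100 genes and wider single promoters 8.72. From 0 to 250 bp downstream the values were 6.15 and 24.7. Upstream, from 1000 to 750 bp before the promoter, they were 9.84 and 4.40. With a window of 1000 bp, 26% of members and 34% of wider single promoters had an unlabelled own-strand neighbour.

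**Figure D3:**
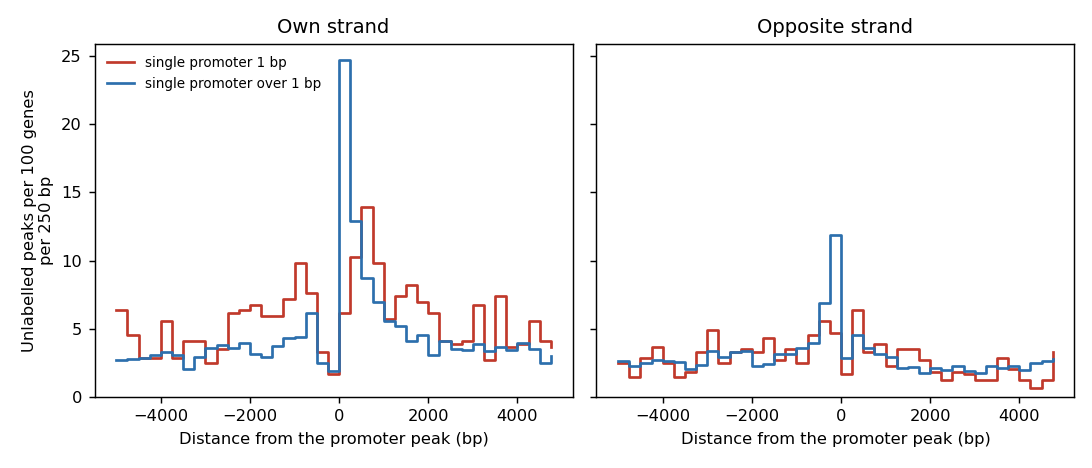
Unlabelled peaks per 100 genes in bins of 250 bp (vertical axis) by distance from the single promoter peak (horizontal axis, bp, downstream positive), on the own and the opposite strand. Red is the 488 members and blue the 3270 wider single promoters. On the own strand the blue line rises to 24.7 just downstream, where the red line is at 6.15, and the red line reaches 13.9 from 500 to 750 bp.

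The relation to width was not a steady one. Unlabelled own-strand neighbours within 500 bp were found for 12.5% of single promoters of 1 bp, 21.2% of 2 to 3 bp, 25.9% of 4 to 10 bp, 24.7% of 11 to 20 bp, 27.9% of 21 to 50 bp and 15.5% of those over 50 bp. Just outside the limit, single promoters of exactly 2 bp stood at 23.2% (interval 18.7 to 28.4) and those of exactly 3 bp at 18.3% (interval 13.5 to 24.3). The share for 1 bp was the lowest of these classes, and its interval overlapped those of promoters of exactly 3 bp and of promoters over 50 bp, the latter with a lower end of 11.9%. The share was lower within each kind of name, and for Ensembl identifiers the intervals overlapped. Members with a symbol stood at 13.3% and wider single promoters with a symbol at 26.5%, and those with an Ensembl identifier at 11% and 17.1%.

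**Figure D4:**
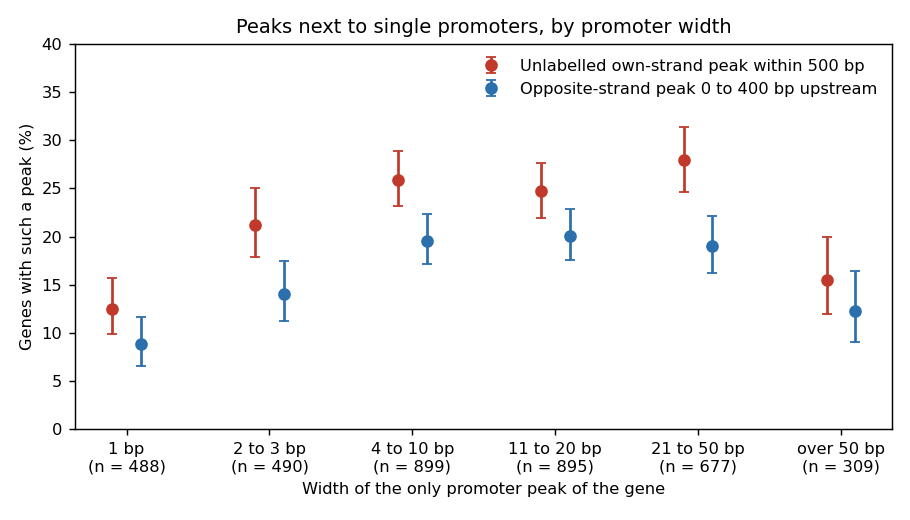
Share of single-promoter genes with an unlabelled own-strand peak within 500 bp (red) or an opposite-strand peak 0 to 400 bp upstream (blue), by the width of their promoter peak (horizontal axis, with the number of genes). Points are percentages and bars are 95% Wilson intervals. The 1 bp class is lowest in both, at 12.5% and 8.81%.

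Few members sat in a cluster of peaks. After RPS28, the symbol-named members with the most unlabelled own-strand neighbours within 500 bp had 4 each, TBX2 among them. ADIPOR1, an adiponectin receptor, CNP, the myelin phosphodiesterase, and COL14A1, a collagen of tendon and dermis, had theirs downstream. GTPBP3, a mitochondrial tRNA-modifying enzyme, had its 4 upstream, 367 bp away or more. The widest neighbours after that of RPS2 were 74 bp at FXYD2, a subunit of the renal sodium pump, 62 bp at MSC, a repressor of muscle differentiation, 43 bp at IDH1, the cytosolic isocitrate dehydrogenase, and 37 bp at TPT1. All 4 lay downstream, at 141, 496, 185 and 290 bp. In these genes the promoter label thus fell on a 1 bp peak, with a wider unlabelled peak within 500 bp. Such a wider neighbour, of any width over 1 bp, was found at 52 members (10.7%), beside 20.9% of all single promoters.

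Other members were isolated. The nearest own-strand peak lay 51902 bp from SOX3, 45153 bp from TEAD1, the transcription factor of the Hippo pathway, 43406 bp from TRMT9B and 41359 bp from CCN3, a matricellular protein. A gene known only by identifier, ENSGALG00000051427, was the farthest of all at 110280 bp. The median distance to the nearest own-strand peak was 3007 bp for members and 2639.5 bp for wider single promoters. At RBM14, the 1 bp labelled promoter of another gene, CCS, lay on the same strand at position -459. A labelled promoter of another gene lay on the own strand within 500 bp of 4 members (0.82%, beside 0.798% of all single promoters).

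Divergent partners were less frequent at members than at the wider single promoters as a whole. An opposite-strand peak lay 0 to 400 bp upstream of 43 members (8.81%, interval 6.61 to 11.7), and of 592 wider single promoters (18.1%, interval 16.8 to 19.5), beside 16.9% of all single promoters. Partners with a promoter label were found at 22 members (4.51%, interval 3.0 to 6.73), beside 8.65% of all single promoters. The share of labelled partners was about the same at single promoters of 2 to 3 bp (4.29%) and over 50 bp (4.85%), so it was not particular to 1 bp. For any opposite-strand peak the shares in those classes were 14.1% and 12.3%, with intervals that overlapped that of members. Ribosomal protein genes were 5 of the 14 symbol-named members with a labelled partner, and 14 of all 324 symbol-named members. Some wider single promoters of ribosomal protein genes, such as RPL10A and RPL12, also had an opposite-strand peak upstream, labelled or not, and others had none. Such a peak at ribosomal protein genes was therefore not particular to 1 bp. RPS24 faced POLR3A, the largest subunit of RNA polymerase III, at 86 bp, RPL11 faced PPT1 at 140 bp, and RPL15 faced NKIRAS1 at 174 bp. Among the partners of other symbol-named members, the closest were PRMT7, an arginine methyltransferase, 58 bp from SLC7A6OS, CENPO, a centromere protein, 83 bp from PTRHD1, and ING5, a chromatin reader, 161 bp from DTYMK, the thymidylate kinase.

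Downstream of the promoter, members had more unlabelled peaks on the own strand than on the opposite strand. From 500 to 20000 bp, the mean was 3.0 on the own strand and 1.68 on the opposite strand for members, and 2.48 and 1.88 for wider single promoters. The medians were 2 and 1 for members, and 1 and 1 for wider single promoters. The own-strand mean was higher still at single promoters of 2 to 3 bp (3.33) and over 50 bp (4.54), so a high mean was not particular to 1 bp. Among genes named by Ensembl identifier the order turned, with 2.20 for members and 2.45 for wider single promoters. The own strand exceeded the opposite strand at 219 members (44.9%, beside 42.0% of all single promoters) and fell short at 144 (beside 35.5% of all), and the first share is close to that of all single promoters. No own-strand peak was found in this window for 135 members (27.7%), beside 30.2% of all single promoters. Of the own-strand peaks counted, 15.9% were 1 bp wide downstream of members and 18.4% downstream of wider single promoters. Windows of neighbouring genes overlap and share peaks.

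The member with the most downstream peaks came from the liver marker list, and the next from the skeletal muscle marker list. The pooled list gives no tissue for these peaks. PCK1, at 11562399 of chromosome 20 on the minus strand, had 35 own-strand peaks and 1 opposite-strand peak. ACTA1, at 40090516 of chromosome 3 on the minus strand, had 32 and 9. TRIM3, a ubiquitin ligase gene on chromosome 1, had 26 and 10, MYH15 25 and 2, and NDRG4, a gene of brain and heart, 23 and 4. RAB8A, a Rab GTPase of membrane traffic, also had 23 and 4, and CNP had 21 and 2. In the chromosome 15 run, ENSGALG00000050023, ENSGALG00000050545 and ENSGALG00000053057 each had 24 and 4, in windows that overlap. Whether these peaks mark starts of transcription or 5′ ends formed in another way was not tested.

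**Figure D5:**
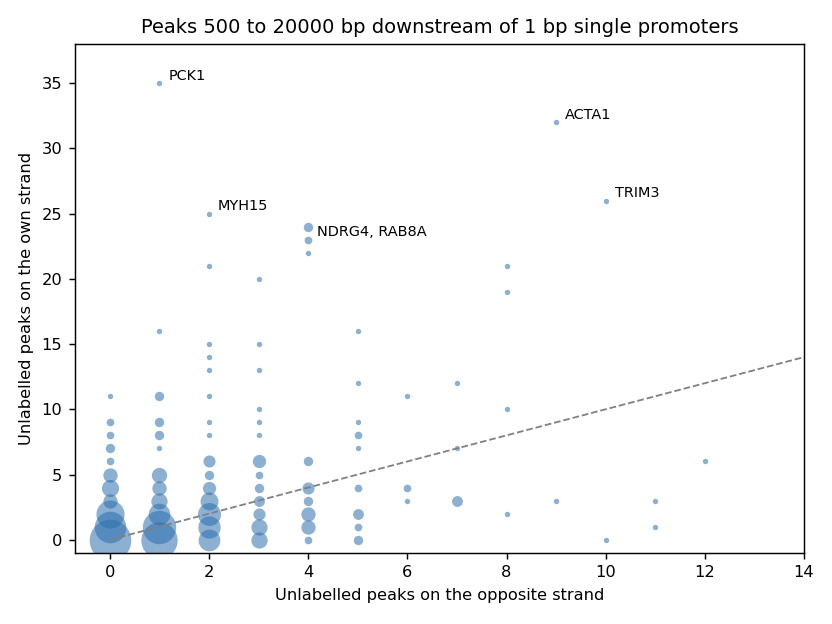
Unlabelled peaks 500 to 20000 bp downstream of each member on the own strand (vertical axis) and on the opposite strand (horizontal axis). Each point is a pair of values, its area is proportional to the number of members there, and the dashed line marks equal counts. PCK1 with 35 and 1 and ACTA1 with 32 and 9 stand highest.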

How the data were processed

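CAGE libraries were made with the nAnT-iCAGE protocol with molecular identifiers, per the labels' protocols. GRCg6a, UMI-tools 1.1.4 and STAR 2.7.9a are listed without roles, per the submitters' processing notes. The list's name gives robust DPI peaks, but the settings of calling and filtering are not stated in the protocols or notes. Nor is the way peaks were labelled as promoters, so which peak carries a label may depend on these steps. The deposited list is pooled over all libraries. Its score column, as the authors deposited it, is 1 in every row and ranks nothing. Per-library depth is unknown.

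Members were genes with exactly 1 promoter peak, of 1 bp. Members and gene lists were chosen with earlier results of these data known. Of the lists, 33 were written first and 4 after the members were seen. Afterwards, 55 genes of other families whose names matched a pattern were removed from the lists, 2 of them members. Distances run between representative positions, printed 1-based. Named genes were all members of lists with at most 4, the 4 with the most own-strand neighbours in longer lists, and the top 5 symbols by neighbours, isolation, downstream peaks, widest neighbour and closest labelled divergent partner. Further genes named were chosen after their values were seen. A few genes that the rule names are not reported here. Sequences were given chromosome numbers by hand, and 295 of 296 members compared had the same number in the RefSeq table (GRCg7b), used for names only. No genome was used, so the planned promoter sequence result was not run. Python 3.11.15, numpy 2.4.6, pandas 2.3.3, scipy 1.17.1 and matplotlib 3.10.9 were used. The counting of neighbours was checked on simulated peaks, with 0 wrong counts over 163 genes.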

Additional observations from a re-analysis of the deposited data

How the results depend on the processing

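No paired analysis was possible because the list has no value per library, and for the same reason no library could be left out. Members numbered 781 with a width limit of 2 bp, 978 with 3 bp and 324 without Ensembl identifiers. Merging promoter peaks within 20 bp kept 488 members by construction, and they were then 6.63% of single promoters. The share of members with an unlabelled own-strand neighbour was 0.82% within 100 bp, 3.69% within 200 bp and 26% within 1000 bp, and with a neighbour over 1 bp wide 0.615%, 3.28% and 21.9%. The share with a divergent partner was 4.92% within 200 bp and 13.9% within 1000 bp. In each of these windows it lay below the share of wider single promoters. Downstream own-strand peaks averaged 1.08 to 5000 bp and 6.32 to 50000 bp, above the 0.765 and 5.33 of wider single promoters. These shifts follow from the window sizes. Of microchromosome genes with any label, 4.94% were members, beside 4.52% elsewhere. Without the run of 11 members, chromosome 15 fell to 9.64%. With a limit of 3 bp, 59.0% of single promoters of ribosomal protein genes were included, beside 26% of all. Of the remaining 13 of 29 alternatives, 2 moved the histone share by over 1.5 times though within its wide interval. It was 18.2% without the members of the runs, where a fall was fixed in advance, and 57.1% with a limit of 3 bp. The alternatives without the runs were chosen after seeing the data. Depth and peak height are unknown, so a 1 bp peak with few reads could not be told from one with many.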

Other observations

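The members included several sets of inducible or cell-type-restricted genes, most of them in no list above. The lists in this paragraph and the next were written after the members were seen and partly because of them. Their shares are therefore not evidence of a preference. Neuropeptide and secretory granule genes gave 7 members of 25 single promoters, beside 13.0% of all. They were GAL, HCRT, NPVF, NPY, UTS2 and VIP, which encode the peptides galanin, orexin, gonadotropin-inhibitory hormone, neuropeptide Y, urotensin 2 and vasoactive intestinal peptide, and SCG2, a granin. None had an own-strand peak within 500 bp, and the nearest lay 38747 bp from NPY and 26178 bp from VIP. Early response and stress genes gave 6 of 23: DUSP1, a MAP kinase phosphatase, PTGS2, the inducible cyclooxygenase, KLF2, THBS1, the cell cycle inhibitor gene CDKN1A and the apoptosis gene PMAIP1. None of these had an own-strand peak within 500 bp either. Since 427 of the 488 members had no unlabelled own-strand peak there, this does not set the neuropeptide or early response genes apart.

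Actin and myosin filament genes, also a list written after the members were seen, gave 8 of 17 single promoters, beside 13.0% of all. They were ACTA1, ACTA2, ACTN2, MYH15, MYH1B, MYH7, MYH7B and TAGLN. All 8 had more unlabelled peaks downstream on their own strand than on the other, from 4 to 32. Over all members the share with such an excess was 44.9%, and over all single promoters 42.0%. It was not particular to 1 bp promoters of myosin genes. The wider single promoters of MYH1F and MYH1E had 109 and 9 and 102 and 1, whereas MYH9 had 2 and 2 and MYH10 0 and 2. Genes of sterol and fat synthesis and its control, likewise listed afterwards, gave 8 of 13 single promoters, beside 13.0% of all. Among these were ACSL1, ANGPTL4, DGAT2, GPAM, INSIG2, MLXIPL and SREBF2, and INSIG2 was the one with an own-strand neighbour within 500 bp, a peak of 6 bp. In all genes with several promoter peaks, which the rule did not use, 4.37% of these peaks were 1 bp wide. In the neuropeptide list 3 of 43 were (interval 2.40 to 18.6), and in the early response list 3 of 23 (interval 4.54 to 32.1). In the actin and myosin list 6 of 92 were (6.52%, interval 3.02 to 13.5), and in the sterol and fat list 6 of 63 (9.52%, interval 4.44 to 19.3). The intervals of the neuropeptide and the actin and myosin lists held 4.37%, and the others had lower ends just above it.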
